A study of Mus musculus with 25 samples.

Results

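Transcript levels of the 7 genes of the opioid and nociceptin system were followed in 25 single cells picked from the mouse arcuate nucleus and median eminence. The genes encode 3 peptide precursors (Penk, Pdyn and Pnoc) and 4 receptors (Oprl1, Oprk1, Oprm1 and Oprd1) and were taken by gene name. Each of the 7 had exactly 1 row among the 30903 gene symbols kept from the deposited table, and every one of the 25 cells was used. The cells were green fluorescent (GFP+) cells of RIP-Cre mice carrying an adeno-associated virus whose GFP is expressed only after Cre has removed a stop cassette. In these mice Cre is driven by a rat insulin promoter, so the label marks only cells in which that transgene has been active. The animals were males of the strain (C57BL/6 x DBA)F2 with an average age of 63 days, and the tissue of 2 mice was pooled. All cells therefore form 1 group and 1 pooled sample with no control, the cells are not replicates of a condition, and no test or p-value is given.

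Opioid peptides are cut from larger precursor proteins at pairs of basic residues and stored in dense-core vesicles. Penk gives the enkephalins, Pdyn the dynorphins and Pnoc nociceptin, also called orphanin FQ, while beta-endorphin comes from Pomc, a hallmark gene of the arcuate nucleus. The delta receptor (Oprd1) binds enkephalins, the kappa receptor (Oprk1) dynorphins and the mu receptor (Oprm1) beta-endorphin and enkephalins, whereas the nociceptin receptor (Oprl1) has low affinity for the opioid peptides. All 4 receptors couple to inhibitory G proteins, which open inwardly rectifying potassium channels, close presynaptic calcium channels and inhibit adenylyl cyclase. In the arcuate nucleus these peptides are known from several kinds of neuron, among them the Pdyn neurons that also make neurokinin B and the GABA neurons that express Pnoc.

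Peptide stretches of Penk, Pnoc and Pomc are shown because they are what sets the gene products apart. Each sequence below is 63 bases of coding sequence, 5′ to 3′ on the coding strand, from the GRCm38 genome with GENCODE M21 gene models. It begins with the 2 codons of the basic pair before the peptide, and the capitals mark the 4 codons of the shared core that starts with an aromatic residue and goes on with glycine, glycine and phenylalanine. The Penk stretch (first met-enkephalin copy) is at chr4:4134292-4134354 on the minus strand, that of Pnoc (nociceptin) at chr14:65404836-65404898 on the minus strand, and that of Pomc (start of beta-endorphin) at chr12:3960367-3960429 on the plus strand.
Penk: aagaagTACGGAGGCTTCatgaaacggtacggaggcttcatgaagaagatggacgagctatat
Pnoc: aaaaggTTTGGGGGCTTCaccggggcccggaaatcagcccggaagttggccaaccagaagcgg
Pomc: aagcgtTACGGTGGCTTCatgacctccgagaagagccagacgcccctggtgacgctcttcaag
The core began with tyrosine in Penk and Pomc and with phenylalanine in Pnoc. The Penk coding sequence held 7 copies of the core after a basic pair, 6 followed by methionine and 1 by leucine. Pnoc held 1, followed by threonine.

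The receptors are shown over the same 45 coding bases of the third transmembrane helix, which holds the aspartate known to contact the amine of opioid ligands. The stretch lies at chr2:181718522-181718566 (plus strand) in Oprl1, chr1:5598735-5598779 (plus strand) in Oprk1, chr10:6829030-6829074 (plus strand) in Oprm1 and chr4:132117279-132117323 (minus strand) in Oprd1. Capitals mark the 32 bases that were the same in all 4 genes.
Oprl1: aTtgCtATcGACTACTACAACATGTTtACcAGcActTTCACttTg
Oprk1: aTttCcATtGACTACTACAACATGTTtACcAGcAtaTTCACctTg
Oprm1: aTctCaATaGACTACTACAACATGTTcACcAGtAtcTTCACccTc
Oprd1: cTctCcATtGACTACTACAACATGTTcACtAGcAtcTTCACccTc
Over the whole proteins, Oprl1 shared 53.3% of aligned residues with Oprk1, 55.8% with Oprm1 and 54.6% with Oprd1. Identity among the 3 classical receptors was 61.0 to 61.4%. The longest run of bases that any pair of these coding sequences had in common was 25, between Oprl1 and Oprk1.

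Levels are RPKM as deposited (reads scaled to gene length and to the depth of the cell). The gene lengths the authors used are not known, so levels of different genes may be set side by side only roughly. The union of exons was 8037 bases for Oprm1 and 9151 for Oprk1, against 2420 and 4675 in their longest coding transcripts. For Penk these lengths were 1634 and 1449 bases. A cell was taken to have a gene where its value was at least 10 RPKM. Depth, estimated from the spacing of low values, was 898200 to 2987900 reads per cell with a median of 1785300, and 3843 to 6183 genes per cell reached the level. At the median depth 10 RPKM corresponded to about 29.2 reads of Penk, 67.0 of Oprl1, 143 of Oprm1 and 163 of Oprk1 on the union of their exons. The cells had 7 to 10 of 10 neuronal markers, among them Snap25, Tubb3, Stmn2 and Uchl1 in all 25 cells. Of 34 markers of glia, vessels, tanycytes and pituitary, 25 were in 0 cells and each cell had 0 to 2 (Cnp, a myelin gene, was in 15 cells). No cell repeated another: the highest Pearson r between any pair of cells was 0.757. Cells 7 and 27 had markers of the neighbouring ventromedial nucleus. In cell 7 these were Adcyap1 at 220.5 RPKM, Fezf1 at 85.4 and Sox14 at 35.7, and in cell 27 they were Nr5a1 at 96.6 and Sox14 at 78.7. The rest of these 4 markers were at 0, namely Nr5a1 in cell 7, and Fezf1 and Adcyap1 in cell 27. Only Sox14 was thus found in both cells. In 6 cells (1, 3, 5, 6, 29 and 31) the nuclear RNA Malat1 was below 20 RPKM, and counts without either set are given where they bear on a result.

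All 7 genes reached 10 RPKM in at least 1 cell, as did 42.7% of the 30903 genes. Oprl1 was the most frequent, in 21 cells (84%, exact 95% interval 63.9 to 95.5%), and 6.23% of all genes were in as many cells or more. Penk and Pnoc were each in 10 cells (40%, 21.1 to 61.3%), and 17.4% of all genes were in at least 10. Oprk1 was in 6 cells (24%, 9.36 to 45.1%), with 24.3% of all genes in at least 6. Pdyn was in 3 cells (12%, 2.55 to 31.2%), with 31.7% of all genes in at least 3. Oprm1 and Oprd1 were in 2 cells each (8%, 0.984 to 26.0%), with 35.8% of all genes in at least 2. The intervals allow for counting error among the picked cells and for nothing else. They overlap between neighbours in the order from Penk to Oprd1, while the lower bound for Oprl1 lies above the upper bound for Penk and Pnoc.

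**Figure D1:**
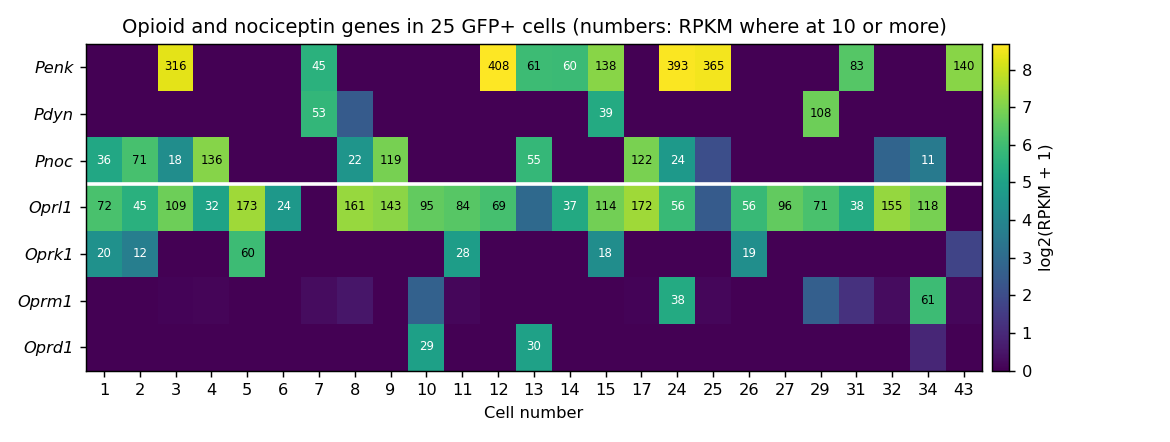
Each column is 1 of the 25 cells by its number and each row 1 of the 7 genes, with colour showing log2(RPKM + 1) and printed numbers showing RPKM where it was 10 or more. The Oprl1 row is filled in 21 cells, the Penk and Pnoc rows in 10 each, and the Oprm1 and Oprd1 rows in 2 each.

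Penk, the enkephalin precursor (chromosome 4, 4133531 to 4138819, minus strand), was either above 45 RPKM or listed at 0 in a cell, with no value between. Its level was 408 RPKM in cell 12, 393 in cell 24, 365 in cell 25, 316 in cell 3, 140.1 in cell 43, 138 in cell 15, 83.3 in cell 31, 60.8 in cell 13, 59.65 in cell 14 and 45.1 in cell 7. The other 15 cells were all listed at 0. The lowest and the highest Penk cell differed 9.06-fold, and the coefficient of variation over the 10 cells was 75.2%. The 4 highest cells stood above 300 RPKM and the next lay at 140.1. Because every Penk cell was above 45 RPKM, the count of 10 was the same at levels of 1, 5 and 20 RPKM. The library preparation (Smart-Seq2) marks no strand, and 233 of the 1634 exon bases of Penk (14.3%) overlap A830012C17Rik on the other strand, whose reads could not be told apart there.

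Pnoc, the nociceptin precursor (chromosome 14, 65400673 to 65425472, minus strand), was as frequent as Penk but lower. Its level was 136 RPKM in cell 4, 122 in cell 17, 119 in cell 9, 70.6 in cell 2, 54.5 in cell 13, 35.8 in cell 1, 24.1 in cell 24, 21.8 in cell 8, 18.2 in cell 3 and 10.9 in cell 34. Cells 32 and 25 had 5.89 and 3.29 RPKM, just below the level, and 13 cells were at 0. Unlike Penk, Pnoc also had values between 0 and 10 RPKM, and among its higher cells it stepped from 119 to 70.6 RPKM. The 10 cells spanned 12.5-fold with a median of 45.15 RPKM, against 139 RPKM for Penk over its own 10 cells. At 20 RPKM Pnoc was in 8 cells.

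Pdyn, the dynorphin precursor (chromosome 2, 129686565 to 129699844, minus strand), was rare. It reached 108 RPKM in cell 29, 52.8 in cell 7 and 38.7 in cell 15. Cell 8 had 4.62 RPKM and the other 21 cells were at 0. Without cells 7 and 27, the cells with ventromedial markers, Pdyn was in 2 of 23 cells and Penk in 9.

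**Figure D2:**
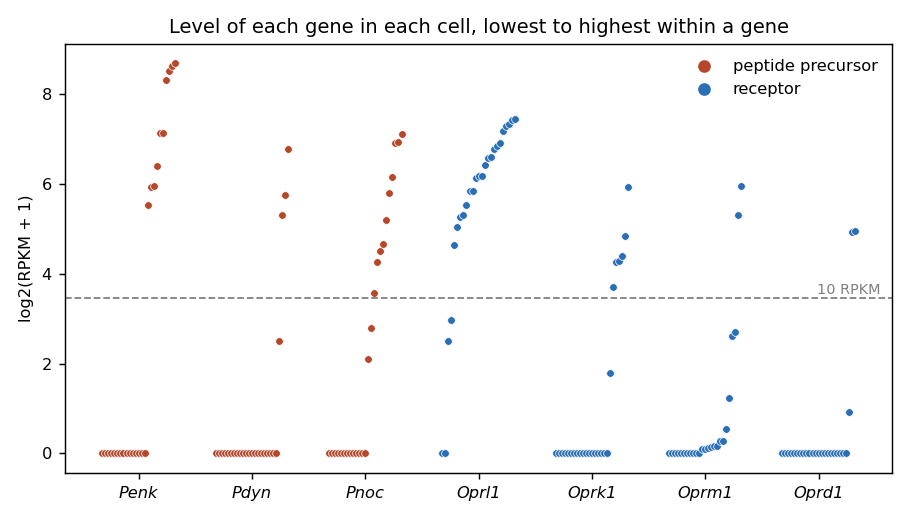
Each point is 1 of the 25 cells, ordered from low to high within a gene, with the level as log2(RPKM + 1) and a dashed line at 10 RPKM. Penk has 10 points from 45.1 to 408 RPKM and 15 at 0, whereas Oprl1 has 21 points from 23.8 to 173 RPKM and Oprm1 has 12 small values below the line.

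Oprl1, the nociceptin receptor (chromosome 2, 181715016 to 181720985, plus strand), was present in nearly every cell at a moderate level. In the 21 cells at or above 10 RPKM it ranged from 23.8 RPKM in cell 6 to 173 in cell 5, with a median of 83.9. Above 140 RPKM were cells 5 (173), 17 (172), 8 (161), 32 (155) and 9 (143). The cells below the level were cell 13 with 6.89 RPKM, cell 25 with 4.65 RPKM, and cells 7 and 43 with 0. The coefficient of variation was 52.5% over the 21 cells, against 75.2% for Penk and 78.3% for Pnoc over 10 cells each.

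Oprk1, the kappa receptor (chromosome 1, 5588466 to 5606131, plus strand), was present at low levels in a minority of cells. Its level was 60.2 RPKM in cell 5, 27.6 in cell 11, 20.1 in cell 1, 18.6 in cell 26, 18.2 in cell 15 and 12.0 in cell 2. Cell 43 had 2.47 RPKM and 18 cells were at 0. Of these values 3 lie between 10 and 20 RPKM, and at 20 RPKM the count fell to 3 cells. Cells 1 and 5 are among those with Malat1 below 20 RPKM, and without such cells Oprk1 was in 4 of 19.

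Oprm1, the mu receptor through which morphine acts (chromosome 10, 6758506 to 7038198, plus strand), was above 10 RPKM in cell 34 (61.1) and cell 24 (38.5) only. Cells 10 and 29 followed with 5.46 and 5.15 RPKM, and cell 31 had 1.35. A further 9 cells had 0.07 to 0.45 RPKM, which corresponds to an estimated 1.18 to 6.43 reads over the union of exons. The remaining 11 cells were at 0. The share of cells with Oprm1 thus ran from 8% at 10 RPKM to 56% (14 of 25) when any value above 0 was counted. Antisense overlap is small at this locus: 96 of 8037 exon bases (1.19%) are shared with Ipcef1, which was above 10 RPKM in 1 cell.

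Oprd1, the delta receptor (chromosome 4, 132110726 to 132144486, minus strand), was nearly equal in its 2 cells, with 30.1 RPKM in cell 13 and 29.4 in cell 10. Cell 34 had 0.90 RPKM and 22 cells were at 0. No cell had more than 1 of Oprk1, Oprm1 and Oprd1 at 10 RPKM, and 10 cells had exactly 1 of them. This depended on the level: at 1 and 5 RPKM cell 10 had both Oprd1 and Oprm1 (5.46 RPKM). With any value above 0, Oprk1 and Oprm1 shared 2 cells. How many shared cells to expect from genes this rare was not worked out.

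The members combined in each cell as follows. At least 1 of the 3 peptide genes was in 18 cells, at least 1 of the 4 receptor genes in 22, and both kinds were in 15. A single peptide gene was in 13 cells and 2 together were in 5 (cells 3, 7, 13, 15 and 24). No cell had all 3. Oprl1 was the only receptor in 12 cells, a pair of receptors was in 9, and none had more. Counting Pomc as a further opioid precursor left only cells 5, 6, 11 and 27 without any.

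Of the 21 pairs of members, 15 shared at least 1 cell, and 13 to 19 did at other levels. Penk and Pnoc shared cells 3, 13 and 24, which is 30% of the cells of each. Penk and Pdyn shared cells 7 and 15, and Pdyn shared 0 cells with Pnoc. Pnoc cells had the nociceptin receptor in 9 of 10, the exception being cell 13. The same receptor was in all 6 Oprk1 cells, in both Oprm1 cells and in 1 of the 2 Oprd1 cells, against 84% of all cells. Peptide and matching classical receptor met in few cells: Pdyn with the kappa receptor in cell 15, Penk with the delta receptor in cell 13 and Penk with the mu receptor in cell 24.

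All 4 cells below the level for Oprl1 were Penk cells (7, 13, 25 and 43). Oprl1 was in 6 of the 10 Penk cells, and in all 15 cells with Penk at 0, where it ranged from 23.8 to 173 RPKM. Cells 7, 25 and 43 had none of the 4 receptors at 10 RPKM, and they were the only such cells. Over the 25 cells Pearson r between Penk and Oprl1 was -0.47 on log2(RPKM + 1) and Spearman rho was -0.45, as a description of cells that share a pool. Of 8896 genes compared, 1.67% had a lower r with Penk than Oprl1 had. This pair was singled out from the 21 pairs of members and its correlation was not planned, so that rank is a description of a picked pair. The 4 cells had 1292500 to 2231300 estimated reads, 3843 to 5340 genes and 105 to 196 RPKM of Malat1, and cell 43 had the fewest genes of all 25. Without the 5 cells of lowest depth, 2 of 20 cells were below the level for Oprl1, both of them Penk cells, and Oprl1 was in 5 of 7 Penk cells. Without cells 7 and 27, 3 of 23 cells were below it, all Penk cells, and Oprl1 was in 6 of 9 Penk cells. Without the 6 cells low in Malat1, 4 of 19 cells were below it, all Penk cells, and Oprl1 was in 4 of 8 Penk cells. At levels of 1, 5 and 20 RPKM and with any value above 0, 2 to 4 cells lacked Oprl1 and each of them had Penk. These re-counts could not have come out otherwise and add no support. Every Penk cell was at 45.1 RPKM or more, and every cell with Penk at 0 had Oprl1 at 23.8 or more. Leaving cells out can likewise only remove some of the same 4.

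**Figure D3:**
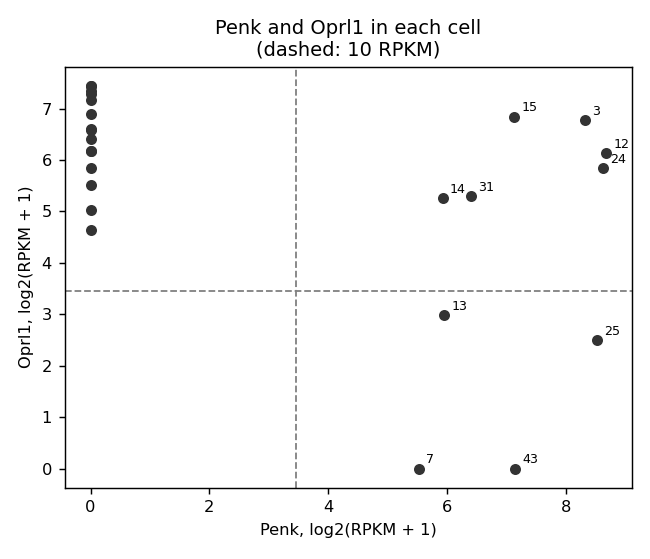
Each point is 1 of the 25 cells, with Penk on the x axis and Oprl1 on the y axis, both as log2(RPKM + 1), dashed lines at 10 RPKM and the numbers of the Penk cells printed. The lower left field is empty: cells 7, 13, 25 and 43, which are below the line for Oprl1, all have Penk, and the 15 cells at 0 for Penk (some points overlap) are all above it.

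Among 36 neuropeptide genes, 23 were in at least 1 cell, which is 63.9% against 42.7% of all genes. Penk and Pnoc tied for first by number of cells with Cartpt and Pomc, 10 cells each, and Pdyn was 10th. By the median over its own cells Penk was 8th and Pnoc 17th, far under Sst at 786 RPKM. Penk was the highest peptide gene in cells 3, 15 and 24 (138 to 393 RPKM) and Pnoc in cells 2, 4 and 17 (70.6 to 136 RPKM). Pdyn led in none. In the same list Qrfp and Cort were in 0 cells.

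Among 44 peptide receptor genes, 36 were in at least 1 cell (81.8%, against 42.7% of all genes), and Oprl1 was first by number of cells and also by the median over its own cells. Adcyap1r1, the receptor of the peptide PACAP, followed in 18 cells with a median of 45.6 RPKM over them, and the somatostatin receptor Sstr1 in 12 with 58.1 RPKM. The neuropeptide Y receptor Npy2r was in 11. Oprk1 ranked 11 by cells and 32 by median among the 36 receptors found. Both kinds of rank depend on gene lengths that are not known. Npffr2 and Vipr2 were in 0 cells.

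**Figure D4:**
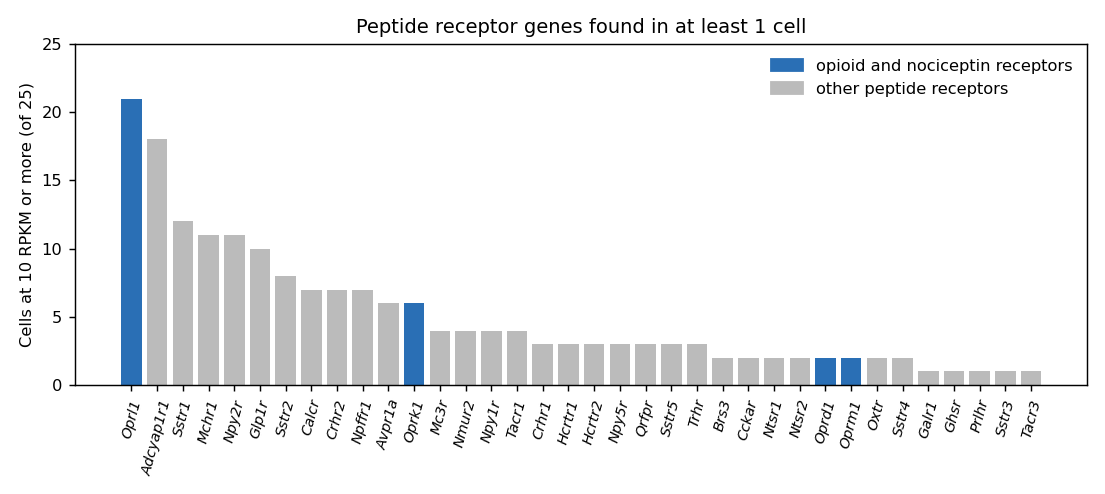
Bars give the number of cells, of 25, with 10 RPKM or more for each of the 36 peptide receptor genes found in at least 1 cell, with the 4 opioid and nociceptin receptors in blue and the others in grey. Oprl1 stands first with 21 cells, before Adcyap1r1 with 18, while Oprk1 has 6 and Oprm1 and Oprd1 have 2 each.

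The cells of each member were then set against genes that mark arcuate neuron types. Most were GABAergic, as were most cells in all: Gad1, which makes GABA, was in 9 of 10 Penk cells, 10 of 10 Pnoc cells, 20 of 21 Oprl1 cells and 6 of 6 Oprk1 cells, against 23 of all 25. Gad1 was at 0 in cells 7 and 27, which both had the vesicular glutamate transporter Slc17a6. Cell 7, with Penk and Pdyn, had 149 RPKM of Slc17a6 and 0.86 of Gad2, and cell 27, with Oprl1, had 20.7 RPKM of Slc17a6 and 109 of Gad2. The vesicular GABA transporter Slc32a1 was in 6 of 10 Penk cells and 4 of 10 Pnoc cells, against 10 of 25.

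Penk did not follow 1 neuron type. Th, the first enzyme of dopamine synthesis, was in 4 of 10 Penk cells (3, 12, 15 and 43, with 186 to 784 RPKM of Th), against 8 of 25 cells in all. Pomc was in 4 Penk cells (12, 13, 14 and 43), Agrp in 4 (3, 14, 15 and 43) and Cartpt in 4 (7, 12, 13 and 43). Some of these values were not far above the level of 10 RPKM. Agrp was at 14.7 RPKM in cell 3, 16.75 in cell 14 and 15.8 in cell 15, and Pomc was at 11.0 in cell 14. Over all 25 cells Agrp was at most 50.6 RPKM. Sst was in 2 (25 and 31, with 713 and 709.5 RPKM of Sst), and Npy was in 0 of them, against 2 of 25. Cell 43 had Penk with Th (248 RPKM), Pomc (232), Agrp (50.6) and Cartpt (25.2) at once. Glp1r, which encodes the glucagon-like peptide receptor, was in 2 of 10 Penk cells, against 10 of 25.

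Pnoc cells also ran across types. Th was in 3 of them, Pomc in 3, Cartpt in 3, Agrp in 4 (13.65 to 37.6 RPKM), Sst in 2, Npy in 1 and Glp1r in 4. The transcription factor Isl1 was in 9 of 10 Pnoc cells, against 18 of 25 cells in all and 6 of 10 Penk cells. Slc17a6 was in 0 of them.

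The 3 Pdyn cells differed from one another. Cell 29 had Pomc at 481 RPKM, Cartpt at 504 and Agrp at 29.5, cell 15 had Th at 695, and cell 7 had Cartpt at 107 and Slc17a6 at 149 beside its ventromedial markers. Tac2, the neurokinin B gene that is co-expressed with Pdyn in a known class of arcuate neurons, was listed at 0 in all 25 cells. By a limit of 3 counts this allows up to 12% of such cells to give reads of Tac2, and it sets no limit on cells that express it below detection. The estrogen receptor Esr1 was in 1 of the 3 Pdyn cells and the prolactin receptor Prlr in 2.

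Oprl1 was spread over the types much as over all cells. It was in 7 of 8 Th cells, 8 of 10 Pomc cells, 7 of 10 Cartpt cells, 8 of 9 Agrp cells, 4 of 5 Sst cells, 2 of 2 Npy cells and 9 of 10 Glp1r cells. Oprk1 cells had Th in 4 of 6 (cells 1, 11, 15 and 26), against 8 of 25 in all, and Cartpt in 0 of 6, against 10 of 25. Both Oprd1 cells (10 and 13) had Pomc, at 50.4 and 46.6 RPKM, together with Cartpt at 156 and 175 RPKM. Both Oprm1 cells (24 and 34) had Gad1, Gad2 and Prlr, and Pomc and Cartpt were at 0 in both. With 2 to 6 cells for a receptor these counts describe the cells picked, and no difference between receptors was tested.

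**Figure D5:**
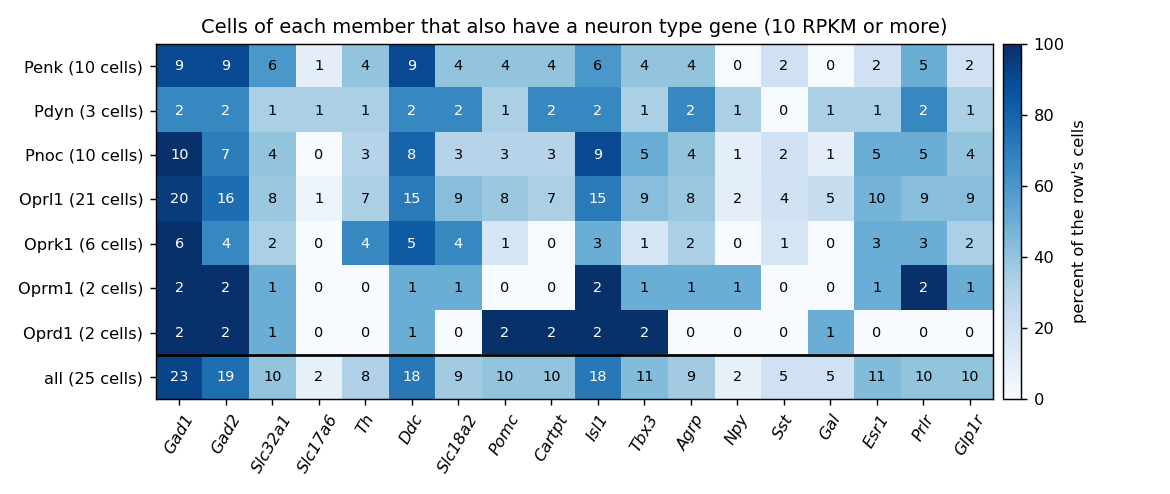
Rows are the cells with each member at 10 RPKM or more, with all 25 cells at the bottom, columns are genes of neuron types, numbers count the cells that have both and colour gives that count as a percentage of the row's cells. The Oprl1 row is close to the row of all cells (Gad1 in 20 of 21 against 23 of 25), and Th is in 4 of 6 Oprk1 cells.

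Of the genes that process such precursors, those for general granule proteins were in every cell and the convertases in fewer. Carboxypeptidase E (Cpe), which trims the basic residues, and the convertase chaperone Scg5 and inhibitor Pcsk1n were in all 25 cells, with medians of 324, 340 and 268 RPKM. The convertase Pcsk2 was in 12 cells and Pcsk1 in 6. At least 1 of these convertases was in 10 of the 18 cells with a member peptide (55.6%), against 13 of all 25 (52%). Pcsk2 was in 5 of 10 Penk cells, 4 of 10 Pnoc cells and 2 of 3 Pdyn cells. In all, 5 of 5 processing genes were in at least 1 cell and 3 in 13 or more cells, against 42.7% and 13.5% of all genes.

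Of the inhibitory G protein alpha subunits, 5 of 5 were in at least 1 cell and 4 in 13 or more, against the same 42.7% and 13.5% of all genes. Gnai2 and Gnao1 were in all 25 cells, with medians of 148 and 44.1 RPKM, Gnaz in 23 and Gnai1 in 22. Of the effectors, 6 of 9 (66.7%) were in at least 1 cell and 2 (22.2%) in 13 or more, against 42.7% and 13.5% of all genes. The N-type calcium channel Cacna1b was in 16 cells and the potassium channel subunit Kcnj9 in 14, and the cyclase Adcy5 was in 9. Kcnj3 was in 6 cells, and its partners Kcnj6 and Kcnj5 were in 0, with highest values of 7.48 and 5.83 RPKM. In Oprl1 cells Kcnj9 was in 13 of 21 and Kcnj3 in 4 of 21, against 14 and 6 of all 25. Adcy5 was in both Oprd1 cells and in neither Oprm1 cell.

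Among genes that shorten or end receptor signals, 11 of the 12 found in the table (91.7%) were in at least 1 cell and 7 (58.3%) in 13 or more, against 42.7% and 13.5% of all genes. The list held 15 names, 3 of them other symbols of kinases already counted. The G protein beta subunit Gnb5, a partner of regulators of G protein signalling, was in all 25 cells with a median of 109 RPKM, and the regulators Rgs4, Rgs17 and Rgs7 were in 22, 21 and 16. The receptor kinase Grk5 was in 0 cells, at most 4.37 RPKM. Of 7 peptidases, 4 (57.1%) were in at least 1 cell and 1 (14.3%) in 13 or more, near the 42.7% and 13.5% of all genes: the aminopeptidase Npepps in 14, Thop1 in 11, Dpp3 in 10 and Ace in 4. Neprilysin (Mme) and aminopeptidase N (Anpep), which are known to degrade enkephalins outside cells, were in 0 cells, with highest values of 0.25 and 1.04 RPKM.

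The genes most like each member over the 25 cells were found by Pearson r on log2(RPKM + 1) among the 8896 other genes that 4 or more cells had at 10 RPKM. Penk was closest to Setdb1 (r 0.68), Dusp11 (0.62) and Eif5b (0.60). Pnoc was closest to Smarcd3 (0.76), Map3k5 (0.70) and Slc16a11 (0.66). Oprl1 was closest to H13 (0.78), Chrnb2 (0.77) and Minpp1 (0.75), of which Chrnb2 encodes a nicotinic receptor subunit and was in 20 of the 21 Oprl1 cells. Oprk1 was closest to Coa4 (0.69), Carns1 (0.68) and Zw10 (0.68). These values describe 25 cells that share a pool and differ in depth, and several of the lists changed under other settings.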

How the data were processed

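The 1 table the authors deposited lists genes against single cells. The deposited values, named as counts, were read as RPKM, made by the authors with a division by gene length and depth, because they are decimals that step by whole reads once multiplied by exon length. Per the labels' protocols, tissue was digested with papain, GFP+ cells were picked by hand, and libraries were made with Smart-Seq2 and Nextera XT, which use no molecular identifiers and keep no strand. A read is therefore not an independent molecule. Per the submitters' processing notes, featureCounts 1.4.6, TopHat2 2.0.14, SAMtools 0.1.19, bcl2fastq and Picard 2.5.0 are named without role or order, as are builds mm10 and GRCm38. The authors' annotation, with its gene lengths, is not given in the sources used here.

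Of 33082 rows, 26 with date-like names were left out, and of the rows of each of 755 repeated symbols only that with the highest sum was used. A gene was counted at 10 RPKM or more. Shares have Clopper-Pearson 95% intervals. Depth was estimated from steps of low values in 3261 genes with a single transcript in GENCODE M21, and read numbers are estimates since the authors' lengths may differ. The depth and similarity steps were tested on simulated data. For depth, the simulation used the same exon lengths as the estimate, so it does not bear on the authors' lengths. For similarity, it only asked whether planted noisy copies of the Penk pattern were found. The pseudocount was 1 RPKM. Members and gene lists were chosen with earlier results of these data known. Genes named are the members, up to 4 genes of each list in most cells and up to 2 in 0 cells, the 3 most similar genes, and the type markers. Others (Pcsk1, Chrnb2's shared cells, Isl1, Esr1, Prlr, the neuronal, glial and ventromedial markers and single cells) were added once their values had been seen. The closer comparison of Penk with Oprl1 was also not among the planned results. Python 3.11.15, pandas 2.3.3, scipy 1.17.1 and Biopython 1.88 were used. The sequence of Pdyn is not reported here.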

Additional observations from a re-analysis of the deposited data

How the results depend on the processing

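The share of cells with each gene and of cells with at least 1 peptide or receptor gene was recomputed at 1, 5 and 20 RPKM, at any value above 0, with cells rescaled to equal sums, at 10 estimated reads, with repeated symbols summed, without the 5 cells of lowest depth (20 left), without the 6 cells low in Malat1 (19 left) and, added after seeing the data, without the 2 cells with a ventromedial marker (23 left). Moves beyond the interval of the reported share came only with any value above 0, where Oprm1 was in 56% of cells and at least 1 receptor gene in 100%. Within the interval, Oprk1 was in 3 cells at 20 RPKM, and Oprm1 was in 4 cells at 5 RPKM and in 5 at 1 RPKM. Median levels stayed within 1 SD in all 28 recomputed values. Of the pair counts, 205 stayed within the exact 95% interval of the reported share, although some of them changed (Pnoc with Oprl1 was 12 at 1 RPKM, against 9), and 5 left it: Penk with Oprk1 and Pdyn with Oprk1 shared 0 cells at 20 RPKM, and with any value above 0 Oprm1 shared 6 cells with Penk, 8 with Pnoc and 12 with Oprl1. The number of pairs sharing a cell, 15 as reported, was 18 at 1 RPKM, 17 at 5, 13 at 20 and 19 with any value above 0. The lists of 3 similar genes were less stable. With Spearman rho, 0 of 3 remained for Oprl1 and 1 for Oprk1. With a pseudocount of 0.1, 1 remained for Oprl1, and with a pseudocount of 10, 1 remained for Pnoc and 1 for Oprk1. With no filter on low values, 0 remained for Oprk1. The cause was not tested. No paired analysis was possible because all 25 cells form 1 group from 1 pool. At these depths a gene listed at 0 was not detected, which does not show that it was absent.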
